A study of Gallus gallus with 16 samples.

Results

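Nuclear-encoded genes of oxidative phosphorylation were followed in the jejunum, the stretch of gut that follows the duodenum, in 16 male broilers at day 21. They were chosen by gene symbol: probe sets with exactly 1 symbol in the platform annotation that begins with NDUF, UQCR, COX4 to COX8 or ATP5, or that is SDHA to SDHD or CYC1. The rule used no measured difference between diets, and it found 59 genes among 11528 genes with a single symbol on the array. Of these, 25 encode subunits of complex I, 5 assembly factors of complex I and 3 subunits of complex II. Another 6 genes were counted with complex III, 9 with complex IV and 11 with complex V, the ATP synthase. Not all of these are subunits. Complex IV includes the supercomplex factor COX7A2L, and complex V includes coupling factor B (ATP5S) and the W chromosome copy ATP5F1AW. SDHC and CYC1 were not analysed here.

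The birds fell into 4 groups of 4, each given a dietary treatment that the labels name only by letter: diet H, diet F, diet E and diet A. The series title speaks of star anise, rosemary, thyme and oregano oils and of saponins, and of growth performance and ileal protein digestibility, but the labels do not say which letter stands for which additive or which group is a control. Strain and pen are not given either. Each array was made from total RNA of the jejunum of a separate bird, so fewer cells of a type and less RNA per cell cannot be told apart in these values. All values below are the deposited array intensities, read as log2, and each difference is the later diet letter minus the earlier one. Birds are called by diet letter and a number from 1 to 4, which only follows the order of deposition.

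The 16 arrays had medians from 5.94 to 6.10, so they lay at nearly the same level. Whether and how they were scaled before deposit is not given. Of 14 enterocyte markers 12 were measured, with means over all birds from 8.14 to 12.90, all above the lower quartile of the arrays, which lay between 4.45 and 4.61. Among the other marker lists, LGR5 of crypt stem cells and the matrix genes DPT and LUM had a mean under that quartile. None of the 59 genes shared its 16 values with another probe set. The 59 had a median level of 9.31, against 5.98 for all probe sets. Their median SD within diets was 0.183, against 0.241. The shares of all probe sets given below are thus not matched to the 59 in level or spread.

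The respiratory chain sits in the inner mitochondrial membrane. Complex I takes electrons from NADH and complex II takes them from succinate, complex III passes them from ubiquinol to cytochrome c, complex IV hands them to oxygen, and complex V makes ATP from the proton gradient that complexes I, III and IV build. Complexes I, III, IV and V combine subunits encoded in the nucleus, which are made on cytosolic ribosomes and imported, with a few encoded in mitochondrial DNA, while the subunits of complex II are all nuclear. In the absorptive epithelium of the intestine this ATP drives the sodium pump that powers uptake of sugars and amino acids.

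The mean over the 59 genes was lowest in diet H and highest in diet A. It was 9.01 ± 0.14 in diet H, 9.16 ± 0.08 in diet F, 9.10 ± 0.11 in diet E and 9.22 ± 0.08 in diet A (SD, n = 4 birds each). The 11469 other genes averaged from 6.56 to 6.57 in each of the 4 diets. Diet H had the lowest of the 4 diet means for 45 of the 59 genes (76.3%), where it had the lowest for 30.9% of the other genes. Diet A had the highest for 39 of the 59 (66.1%), where it had the highest for 27.3% of the other genes. Diet F was highest for 15 genes, diet E for 4 and diet H for 1, which was NDUFA9 of complex I.

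None of these genes passed a test over all probe sets. The moderated F test over the 4 diets (limma, Benjamini-Hochberg adjustment over 20804 probe sets, threshold 0.05) called 0 of the 59, with a smallest adjusted p of 0.597, and it called 0% of all probe sets. At an unadjusted p under 0.05 it marked 6 of the 59 (10.2%), beside 8.15% of all probe sets and 7.19% of all genes with 1 symbol. This share was near the background. The 6 were UQCR11 and UQCRHL of complex III, COX7A2 and COX8A of complex IV, ATP5H of complex V and NDUFC2 of complex I. The description below therefore rests on sizes, intervals and counts, and no single gene can be said to have changed.

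**Figure D1:**
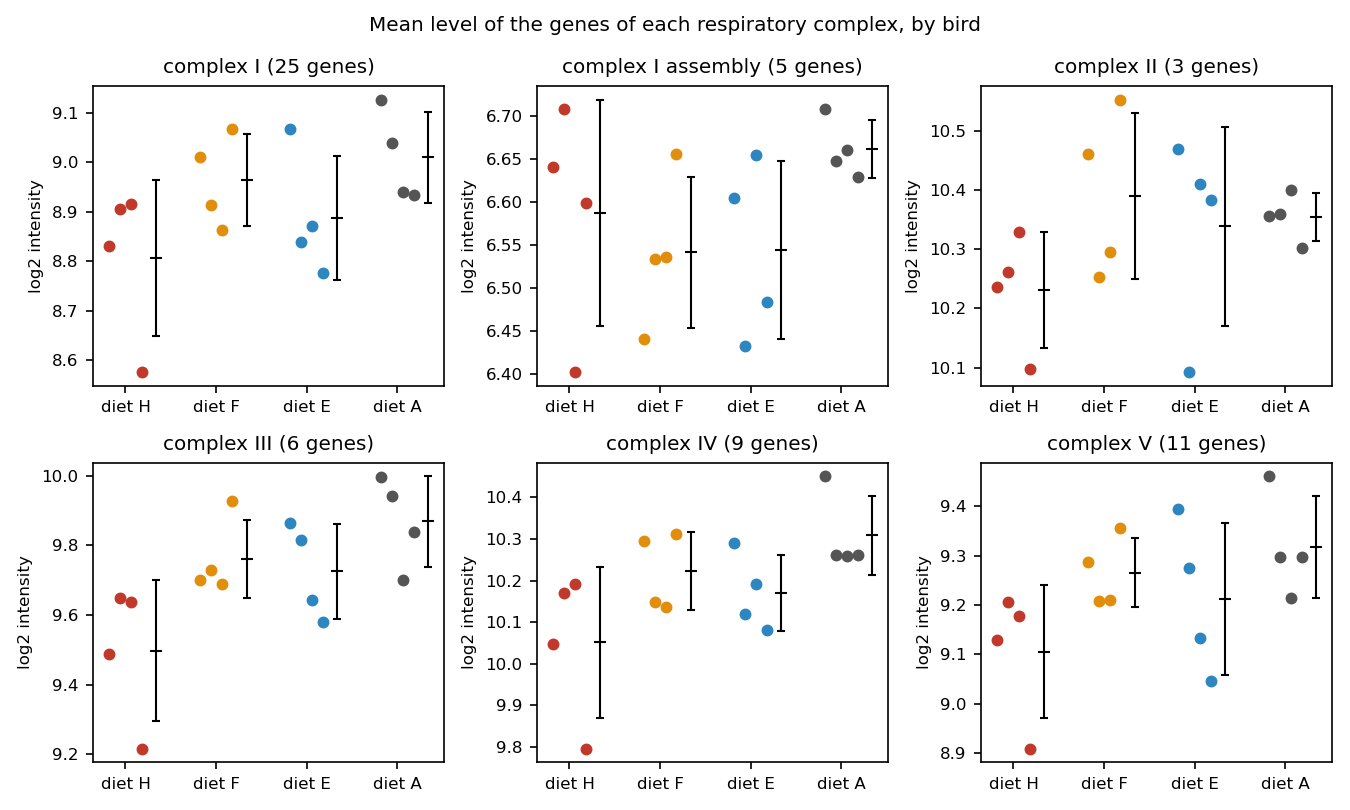
Mean log2 intensity of the genes of each complex in each of 16 birds (points), with diet mean and SD (bars), for diets H, F, E and A from left to right. Bird H4 is the lowest point of complexes I, III, IV and V, and bird A1 is the highest point of the same 4 complexes.

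The spread among birds of a diet was uneven. Bird H4 had a mean of 8.80 over the 59 genes, against 9.02 to 9.11 in the other diet H birds, and bird A1 had 9.34, against 9.15 to 9.23 in the other diet A birds. H4 was the lowest of all 16 birds for 33 of the 59 genes and the highest for 0, and it lay above a gene's own mean for 4. Among the other genes it stood out in both directions, lowest for 11% and highest for 12.9%. A1 was the highest for 25 of the 59 and the lowest for 0, and it was highest for 8.48% and lowest for 7.67% of the other genes. This was not particular to the 59 genes. H4 was also lowest and A1 highest in the mean of assembly and supply genes outside the rule (7.30 and 7.60). The same held for mitochondrial (7.37 and 7.85) and cytosolic ribosomal protein genes (9.40 and 10.4). For the citric acid cycle, electron carrier, regulator, import and proteasome lists described below, these birds were not both the extremes. In diet E, E1 at 9.26 stood above E2, E3 and E4 at 9.075, 9.09 and 8.995. F4 at 9.27 stood above the other diet F birds at 9.08 to 9.18.

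**Figure D2:**
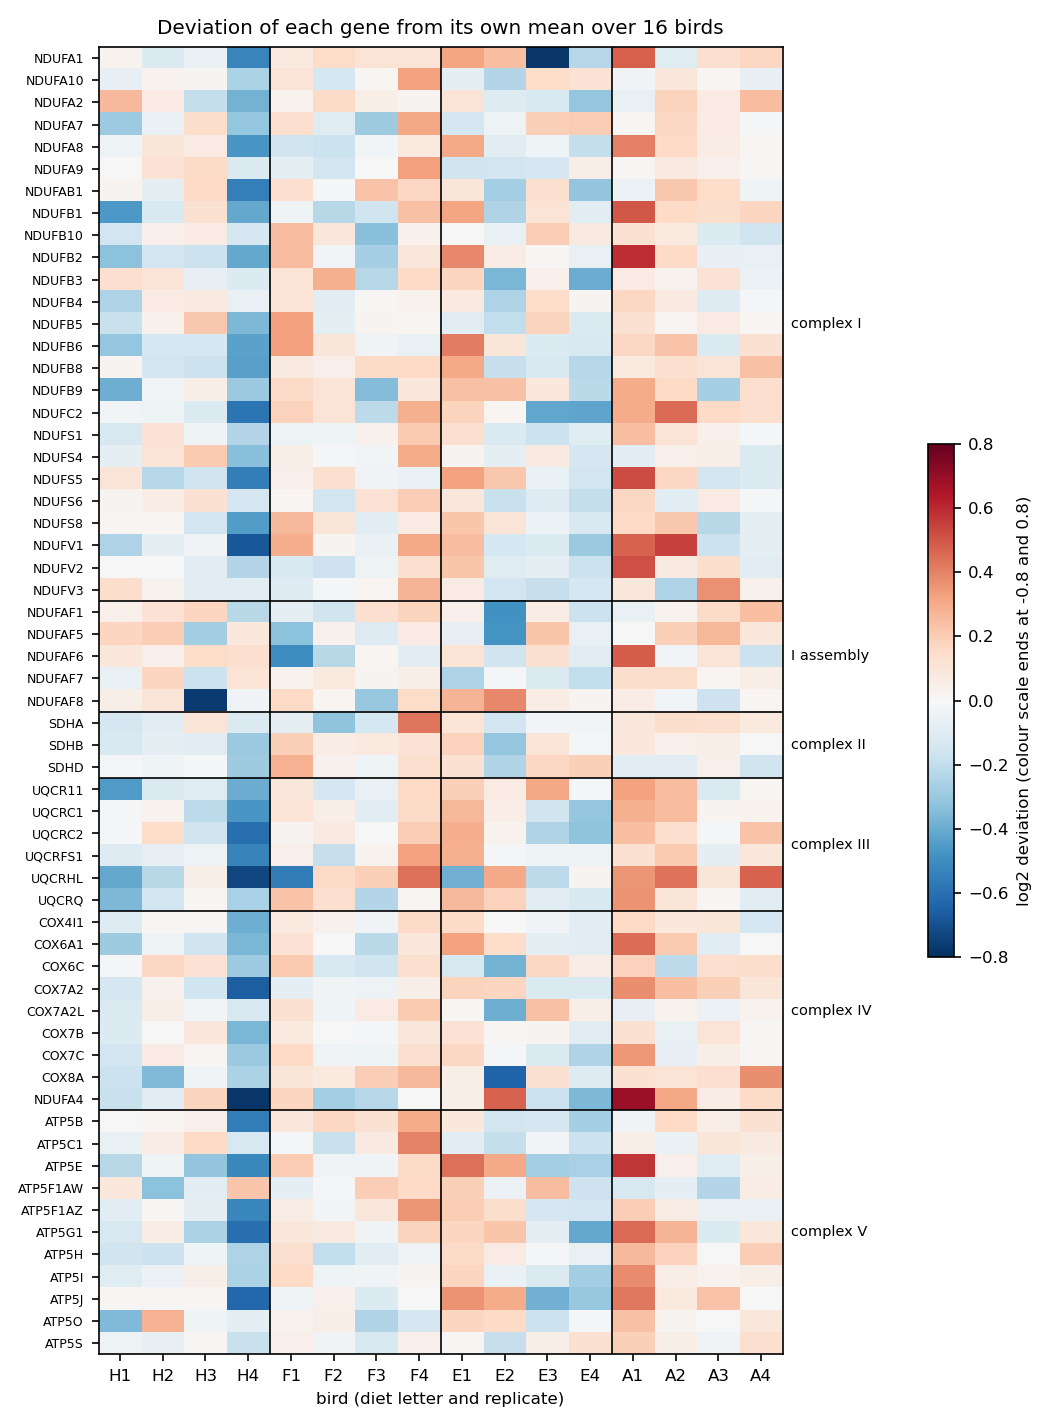
Deviation of each of the 59 genes (rows, by complex) from its own mean over 16 birds (columns, diets H, F, E, A), on a log2 colour scale from -0.8 to 0.8. The column of H4 is above the mean (red) for 4 of 59 genes and the column of A1 for 49.

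The deposited values carried other differences between the same birds. Crypt and proliferation markers (9 of 11 measured) had mean levels of 5.90, 6.07, 7.33 and 5.32 in H1 to H4, against 7.49, 7.34, 7.34 and 6.70 in A1 to A4. H4 and A1, the birds with the lowest and highest respiratory means, were also lowest and highest of all 16 here, and E4 was second lowest in both. Some other birds kept this order and some did not. A2 was high in both, at 7.34 and 9.23, and H1 was low in both, at 5.90 and 9.02. E2 had crypt markers at 7.48, close to A1, with a respiratory mean of 9.075. H3, at 7.33, had a respiratory mean of 9.09. All 9 of these markers lay below diet A in diet H, by a median of -0.91, as did all 6 measured matrix markers (-0.92) and all 7 T and NK lymphocyte markers (-0.43), while 10 of 12 enterocyte markers (0.16) and all 5 enteroendocrine markers (0.61) were higher in diet H. The summed level of the crypt markers on a log2 scale ran from 8.61 to 11.12 in diet H, 9.18 to 9.78 in diet F, 8.73 to 11.70 in diet E and 10.33 to 11.49 in diet A. For matrix markers the sums ran from 8.50 to 10.63 in diet H and 9.19 to 10.88 in diet A, and for T and NK lymphocyte markers from 10.78 to 11.56 in diet H and 11.16 to 12.13 in diet A. By mean level, H4 was highest and A1 lowest of all 16 birds for enterocyte (11.92 and 11.40) and enteroendocrine markers (8.02 and 6.85). H4 was lowest and A1 highest for T and NK lymphocyte markers (7.29 and 8.70). The part of the marker lists in the respiratory values was not tested in any pair of diets.

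Between diets H and A, 56 of the 59 genes were lower in diet H, with a median log2 difference of -0.185, whereas 50.1% of the other genes were lower, with a median of 0. At an unadjusted p under 0.05, 16 of the 59 were lower, beside 5.91% of all probe sets, and 0 were higher, beside 5.62%. The birds of diet H lay wholly below those of diet A for 10 of the 59, beside 3.18% of all probe sets. After adjustment 0 of the 59 were called, with COX7A2 at the smallest limma adjusted p of 0.229, and 0.00481% of all probe sets (1 of 20804) were called in either direction. Genes of one bird vary together, so the 59 are not separate trials.

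Most of the 59 genes were lower in diet H whichever single bird was left out, with medians from -0.124 without H4 to -0.237 without H3. Without H4 the median was -0.124 with 50 genes lower and 7 marked at an unadjusted p under 0.05, and without A1 it was -0.163 with 55 lower and 9 marked. Without A2 it was -0.175 with 55 lower and 10 marked. Leaving out any other bird of these diets gave medians from -0.237 to -0.192, with 52 to 58 lower and 14 to 19 marked. With both A1 and H4 left out, a choice made after seeing the data, the median was -0.089 with 50 lower and 2 marked. The numbers in the sample titles form a lower range (up to 25) and an upper one, each with a pair of birds from every diet. What the ranges stand for is not given. Within each range the numbers rise from diet A through E and F to H, so a split by range cannot separate number order from diet. When a straight-line term for the number was added to the fit, 55 genes were lower in diet H and 6 were marked. The median was then -0.127, against -0.185 with 16 marked in the main fit. With the title range as a block 20 were marked, and with neighbouring numbers as a random block 14 were. In both fits 56 genes were lower with the median at -0.185, and none of the 59 was called. Within the lower range 47 genes were lower in diet H with a median of -0.173, and within the upper range 55 were, with a median of -0.212.

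**Figure D3:**
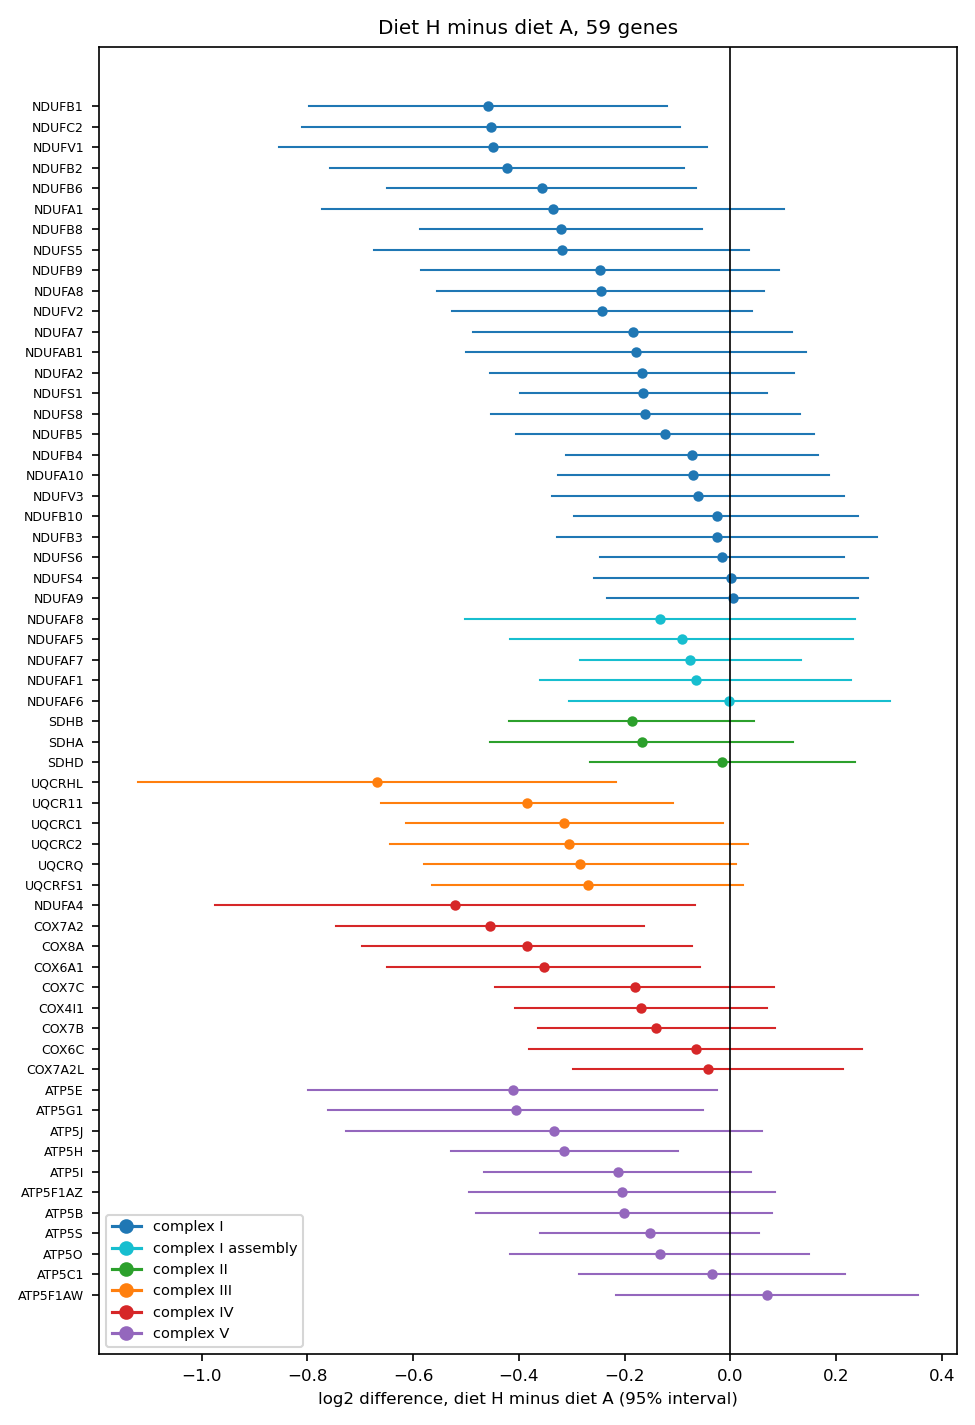
Log2 difference, diet H minus diet A, for each of 59 genes (points) with its 95% interval from limma (lines), sorted within each complex. All points of complexes II, III and IV lie left of 0, and the points furthest left are UQCRHL and NDUFA4.

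In complex I, 23 of 25 subunits had a lower mean in diet H than in diet A, with a median of -0.178, which was -0.11 without H4. The subunits named NDUFB, which sit in the membrane arm, were lower in 9 of 9 cases with a median of -0.247, and those named NDUFA in 5 of 6 with a median of -0.176. Those named NDUFV were lower in 3 of 3 with a median of -0.243, and those named NDUFS in 4 of 5 with a median of -0.161. NDUFC2, another accessory subunit of the membrane arm, had 8.13, 8.12, 8.04 and 7.57 in H1 to H4, against 8.45, 8.61, 8.32 and 8.29 in A1 to A4. Its levels in diet F were 8.34, 8.27, 7.95 and 8.44, and in diet E 8.33, 8.18, 7.74 and 7.73. All diet H birds lay below all diet A birds, and diet E reached as low as diet H in 2 of its birds. Diet H minus diet A was -0.45 for NDUFC2 (SE 0.168, 95% interval -0.81 to -0.10, limma adjusted p 0.321).

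NDUFB6 and NDUFB1, also of the membrane arm, showed the same ordering of diets H and A. NDUFB6 had 8.02, 8.19, 8.20 and 7.90 in diet H, 8.66, 8.43, 8.31 and 8.27 in diet F, 8.74, 8.43, 8.22 and 8.21 in diet E, and 8.50, 8.56, 8.22 and 8.46 in diet A. Its diet H birds lay below every other bird, and diets F, E and A overlapped. Diet H minus diet A was -0.36 for NDUFB6 (SE 0.137, limma adjusted p 0.343). NDUFB1 had 9.36, 9.69, 9.94 and 9.41 in diet H, against 10.31, 9.97, 9.96 and 9.99 in diet A, a difference of -0.46 (SE 0.159, limma adjusted p 0.286). The birds of both diets did not overlap, and H3 at 9.94 lay just below A3 at 9.96. NDUFB4, a further membrane arm subunit, averaged 8.31 ± 0.15 in diet H and 8.38 ± 0.12 in diet A (SD, n = 4 each), and its interval from -0.31 to 0.17 included 0.

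The core subunits NDUFV1, NDUFV2, NDUFS1 and NDUFS8 of complex I are given next for their roles, and were named after their values were seen. NDUFV1, which carries the flavin that accepts electrons from NADH, was at 8.64 ± 0.30 in diet H and 9.09 ± 0.37 in diet A (SD, n = 4 each), a difference of -0.45 (95% interval -0.85 to -0.05, limma adjusted p 0.389). NDUFV2, its iron-sulfur partner, differed by -0.24 (95% interval -0.53 to 0.04). NDUFS1, the largest iron-sulfur subunit, differed by -0.17 (95% interval -0.40 to 0.07), and NDUFS8, an iron-sulfur subunit near the quinone site, by -0.16 (95% interval -0.45 to 0.13). The accessory subunits NDUFA9, close to the quinone site, and NDUFS4, of the peripheral arm, were the 2 subunits of complex I that were not lower. They differed by 0.004 (95% interval -0.23 to 0.24) and 0.002 (95% interval -0.26 to 0.26). Both turned negative under quantile normalization, with the title number as a covariate and within the upper title range, and each did so when any of 4 single birds was left out, so no direction can be given for them.

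The 5 assembly factors of complex I, which help to build it and are not part of the finished enzyme, differed less between diets H and A, from -0.13 for NDUFAF8 to -0.002 for NDUFAF6, with a median of -0.076. Their median was -0.014 without H3, -0.048 without A3 and -0.129 without H2, and it was 0.057 within the lower title range. Whether assembly factors and subunits differ in response was not tested.

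All 3 measured subunits of complex II had a lower mean in diet H than in diet A, with a median of -0.168. Without H4 the median was -0.137 with 2 of 3 lower. SDHB, the iron-sulfur subunit, had 9.62, 9.67, 9.66 and 9.45 in diet H, against 9.83, 9.79, 9.79 and 9.74 in diet A. The birds did not overlap, and diet H minus diet A was -0.19 for SDHB (SE 0.109, 95% interval -0.42 to 0.04, limma adjusted p 0.526). SDHA, the flavoprotein that oxidises succinate, averaged 10.33 ± 0.11 in diet H and 10.50 ± 0.03 in diet A (SD, n = 4 each), and SDHD, a membrane anchor, averaged 10.76 ± 0.13 in diet H and 10.78 ± 0.08 in diet A.

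In complex III, 6 of 6 genes had a lower mean in diet H than in diet A, with a median of -0.31, which was -0.237 without H4 and -0.17 without both A1 and H4. UQCRHL, named for its likeness to the acidic hinge protein that helps cytochrome c1 and cytochrome c meet, had 9.80, 9.99, 10.26 and 9.49 in H1 to H4. Its levels were 9.66, 10.37, 10.41 and 10.66 in diet F, 9.83, 10.51, 10.002 and 10.23 in diet E, and 10.57, 10.65, 10.31 and 10.69 in diet A. Every diet H bird lay below every diet A bird, while F1, E1, E3 and E4 lay within the range of diet H. Diet H minus diet A was -0.67 for UQCRHL (SE 0.213, 95% interval -1.12 to -0.22, limma adjusted p 0.25), a linear ratio of 0.629.

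UQCR11, a small subunit of complex III, had the smallest F test p of the 59. It had 9.81, 10.14, 10.17 and 9.86 in diet H, 10.35, 10.13, 10.21 and 10.42 in diet F, 10.45, 10.33, 10.57 and 10.24 in diet E, and 10.59, 10.51, 10.15 and 10.28 in diet A. All 4 diet H birds lay below all diet E birds, and H3 reached above A3. Diet H minus diet A was -0.39 for UQCR11 (SE 0.13, limma adjusted p 0.273). UQCRC1, a core protein, averaged 10.25 ± 0.23 in diet H and 10.56 ± 0.14 in diet A (SD, n = 4 each), a difference of -0.31 (95% interval -0.61 to -0.01, limma adjusted p 0.412).

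In complex IV, all 9 genes had a lower mean in diet H than in diet A, with a median of -0.181. Without H4 it was -0.112 with 8 of 9 lower. COX7A2, the widely expressed form of subunit 7A, had 10.42, 10.59, 10.39 and 9.90 in H1 to H4, 10.49, 10.53, 10.51 and 10.60 in diet F, 10.73, 10.73, 10.44 and 10.44 in diet E, and 10.93, 10.80, 10.75 and 10.65 in diet A. Diets H and F both lay wholly below diet A, and H4 at 9.90 was the lowest bird. Diet F lay wholly below diet A for 1 of the 59 genes, beside 522 of 20804 probe sets. Diet H minus diet A was -0.45 for COX7A2 (SE 0.137, 95% interval -0.74 to -0.16, limma adjusted p 0.229), a linear ratio of 0.73, and it was -0.31 without H4. COX8A, a small structural subunit, had 8.14, 7.96, 8.29 and 8.06 in diet H, 8.41, 8.39, 8.51 and 8.57 in diet F, 8.37, 7.67, 8.43 and 8.21 in diet E, and 8.43, 8.42, 8.45 and 8.69 in diet A. Diet H lay below all birds of diets F and A, diet E spanned both levels with E2 lowest of all 16, and diet H minus diet A was -0.39 (SE 0.146, limma adjusted p 0.338).

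The other genes of complex IV ranged widely. NDUFA4, first named as a complex I subunit and counted with complex IV since, differed by -0.52 between diets H and A (95% interval -0.97 to -0.07, limma adjusted p 0.37), with 9.75, 9.83, 10.10 and 9.15 in diet H and 10.61, 10.24, 9.99 and 10.08 in diet A, which overlapped at H3. COX6A1, a regulatory subunit, differed by -0.35 (95% interval -0.65 to -0.06, limma adjusted p 0.356). COX4I1, the common form of the subunit 4 that binds adenine nucleotides, differed by -0.17 (95% interval -0.41 to 0.07), and COX7B by -0.14 (95% interval -0.36 to 0.08). COX7A2L, a relative of COX7A2 that takes part in joining complexes into supercomplexes, differed by -0.04 (95% interval -0.30 to 0.21), and its 4 diet H birds at 8.90 to 9.07 covered the diet A birds at 8.96 to 9.05. The difference between COX7A2 and COX7A2L was not itself tested.

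In complex V, 10 of 11 genes had a lower mean in diet H than in diet A, with a median of -0.205, which was -0.126 without H4. ATP5H, subunit d of the stalk that holds the catalytic head, had 9.95, 9.94, 10.07 and 9.86 in diet H, 10.24, 9.91, 10.03 and 10.08 in diet F, 10.26, 10.17, 10.10 and 10.05 in diet E, and 10.37, 10.29, 10.11 and 10.31 in diet A. Diet H lay below diet A in every bird with the diet means of F and E between them, and diet H minus diet A was -0.31 for ATP5H (SE 0.101, 95% interval -0.53 to -0.10, limma adjusted p 0.254). ATP5G1, which encodes the ring subunit c that protons turn, had 9.19, 9.37, 9.06 and 8.71 in diet H and 9.76, 9.58, 9.20 and 9.40 in diet A, a difference of -0.41 (95% interval -0.76 to -0.05, limma adjusted p 0.371) with H2 above A3. ATP5O, the stalk protein that confers oligomycin sensitivity, differed by -0.13 (95% interval -0.42 to 0.15).

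ATP5B, the catalytic beta subunit, was read by more than 1 probe set. The brighter one, used here, had 12.24, 12.26, 12.29 and 11.69 in diet H, 12.34, 12.41, 12.37 and 12.55 in diet F, 12.33, 12.10, 12.11 and 11.98 in diet E, and 12.22, 12.40, 12.30 and 12.37 in diet A. H1 to H3 lay close together inside the diet A range, and H4 lay far below. Diet H minus diet A was -0.20 for this probe set (95% interval -0.48 to 0.08) and -0.44 for the dimmer one (limma adjusted p 0.342). NDUFV2 had a second probe set too, whose mean of 2.54 was under the lower quartile of all arrays and whose difference was -0.05.

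ATP5F1AZ and ATP5F1AW, the Z and W chromosome copies of the catalytic head's alpha subunit, are given as a pair, and ATP5F1AZ was chosen after its values were seen. ATP5F1AZ averaged 10.90 ± 0.24 in diet H and 11.11 ± 0.12 in diet A (SD, n = 4 each), with H4 at 10.55 the lowest of 16 birds. ATP5F1AW ran from 5.37 to 5.94 in birds labelled male, and it was the only gene of complex V with a higher mean in diet H, by 0.07 over diet A (95% interval -0.22 to 0.35). That sign turned without H4, with the title number as a covariate and within the lower title range. Male birds carry no W chromosome, so under that label the ATP5F1AW values cannot be levels of the W copy. What this probe set reads instead was not tested.

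**Figure D4:**
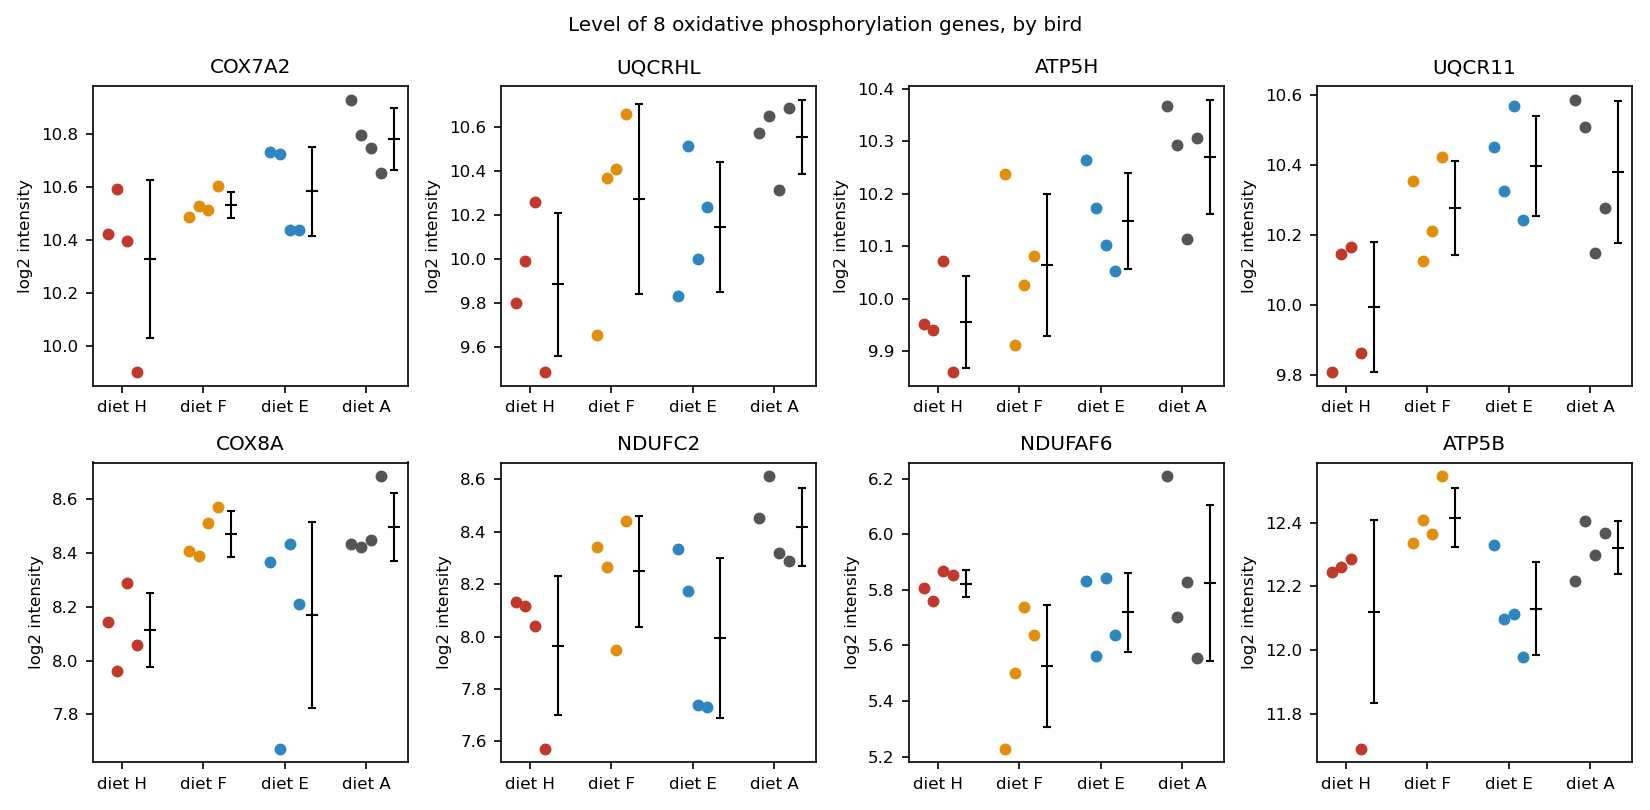
Log2 intensity of 8 genes in each bird (points) with diet mean and SD (bars), for diets H, F, E and A from left to right. For COX7A2, UQCRHL, ATP5H, COX8A and NDUFC2 the 4 diet H points lie below all 4 diet A points, and for NDUFAF6 the 4 diet H points lie above all 4 diet F points.

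Diet H against diet F, which shares the diet H birds with the comparison above, had 54 of 59 genes lower with a median of -0.147, beside 52.1% of the other genes and a median of -0.01. The count at an unadjusted p under 0.05 was 6 lower, beside 3.25% of all probe sets, and 0 higher, beside 2.02%. The birds of diet H lay wholly below those of diet F for 7 of the 59, beside 2.54% of all probe sets. After adjustment 0 of the 59 were called, with a smallest limma adjusted p of 0.842, beside 0% of all probe sets. Without H4 the median was -0.083 with 48 genes lower and 0 marked at an unadjusted p under 0.05, and without F4 1 was marked. Of the markers, 8 of 9 crypt (median -0.10), 3 of 6 matrix (0.10) and 6 of 7 T and NK lymphocyte markers (-0.36) were lower in diet H than in diet F. Higher in diet H were 8 of 12 enterocyte (median 0.09) and 5 of 5 enteroendocrine markers (0.24).

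Each of complexes I to V held at least 1 gene marked lower in diet H against diet F. In complex III, 6 of 6 genes were lower with a median of -0.233, which was -0.162 without H4. NDUFB6 differed by -0.34 (95% interval -0.63 to -0.05), COX8A by -0.36 (95% interval -0.67 to -0.05) and SDHB by -0.26 (95% interval -0.49 to -0.03), all at a limma adjusted p of 0.842 and with no overlap between the birds of both diets. ATP5B differed by -0.29 between diets H and F (95% interval -0.57 to -0.01, limma adjusted p 0.842), again without overlap. On the higher side NDUFAF6, an assembly factor of complex I, had 5.81, 5.76, 5.87 and 5.86 in diet H, against 5.23, 5.50, 5.74 and 5.64 in diet F. No bird overlapped, and diet H minus diet F was 0.30 for NDUFAF6 (95% interval -0.01 to 0.60, limma adjusted p 0.842). All diet H birds lay above all diet F birds for 1 of the 59 genes, beside 311 of 20804 probe sets, which is near the background. NDUFAF5, an assembly factor with hydroxylase activity, differed by 0.13 (95% interval -0.20 to 0.45) and ATP5O by 0.03 (95% interval -0.25 to 0.31). ATP5O turned negative within the lower title range (-0.074) and NDUFAF5 within the upper one (-0.078).

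Between diets H and E, 47 of the 59 genes were lower in diet H with a median of -0.083, beside 51.6% of the other genes and a median of -0.009. At an unadjusted p under 0.05, 3 of the 59 were lower, beside 5.66% of all probe sets, and 0 were higher, beside 3.86%, so the share was near or under the background. The birds did not overlap for the same 3 genes, all lower in diet H, beside 3.23% of all probe sets. After adjustment 0 of the 59 were called, beside 0% of all probe sets. Under median centring, which moved the median of all genes to 0.045, 35 of the 59 were lower with a median of -0.028. The median was -0.029 without H4 and also -0.029 without E1, with 35 lower and 1 marked in each, and it was -0.137 with 6 marked without H2. Without H3, 7 were marked, without E4 6 and without E3 5. Of the markers, 6 of 9 crypt (median -0.13), 5 of 6 matrix (-0.58) and 6 of 7 T and NK lymphocyte markers (-0.10) were lower in diet H than in diet E. Higher in diet H were 8 of 12 enterocyte (median 0.05) and 5 of 5 enteroendocrine markers (0.25).

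UQCR11 was the leading gene between diets H and E, at -0.40 (SE 0.13, 95% interval -0.68 to -0.13, limma adjusted p 0.479). NDUFB6 differed by -0.32 (95% interval -0.61 to -0.03) and NDUFB2, another membrane arm subunit, by -0.36 (95% interval -0.70 to -0.03). NDUFB2 had 8.88, 9.05, 9.04 and 8.79 in diet H, against 9.59, 9.26, 9.22 and 9.15 in diet E, with no overlap. In this pair complex III had 6 of 6 genes lower in diet H with a median of -0.24, and without H4 it had 5 of 6 with a median of -0.122. Of the 5 assembly factors of complex I 4 were higher, with a median of 0.14, which was 0.051 without E2. The assembly factors NDUFAF1 and NDUFAF7, of which NDUFAF7 is a protein arginine methyltransferase, were higher in diet H by 0.17 (95% interval -0.13 to 0.46) and 0.15 (95% interval -0.05 to 0.36). NDUFA9 was higher in diet H by 0.14 (95% interval -0.10 to 0.37).

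Diet E against diet A had 52 of 59 genes lower in diet E with a median of -0.131, beside 48.7% of the other genes and a median of 0.006. The count at an unadjusted p under 0.05 was 3 lower, beside 2.97% of all probe sets, and 0 higher, beside 4.74%. After adjustment 0 of the 59 were called, with a smallest limma adjusted p of 0.613, beside 0% of all probe sets. Without A1 the median was -0.083 with 44 genes lower and 1 marked at an unadjusted p under 0.05, and without E4 it was -0.091 with 45 lower and 0 marked. All 9 genes of complex IV were lower, with a median of -0.131, which was -0.051 with 8 lower without A1 and -0.075 without E4. In complex V, 10 of 11 genes were lower with a median of -0.123, and 8 of 11 were lower without A1. Of the markers, 9 of 9 crypt (median -0.785), 5 of 6 matrix (-0.33) and 7 of 7 T and NK lymphocyte markers (-0.285) were lower in diet E than in diet A. Higher in diet E were 8 of 12 enterocyte (median 0.135) and 4 of 5 enteroendocrine markers (0.138).

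Diet E differed from diet A most in p for NDUFC2, NDUFAF7 and COX8A. NDUFC2 differed by -0.42 (SE 0.168, 95% interval -0.78 to -0.07, limma adjusted p 0.613), carried by E3 and E4 at 7.74 and 7.73. These are the diet E birds of the upper title range. NDUFAF7 had 7.20, 7.44, 7.34 and 7.25 in diet E, against 7.59, 7.59, 7.47 and 7.50 in diet A. Its birds did not overlap, and the difference was -0.23 (SE 0.098, limma adjusted p 0.618). All diet E birds lay below all diet A birds for 1 of the 59 genes, beside 284 of 20804 probe sets. COX8A differed by -0.33 (95% interval -0.64 to -0.02, limma adjusted p 0.632), and by -0.16 without E2. On the higher side were NDUFAF8 at 0.21 (95% interval -0.16 to 0.58), ATP5F1AW at 0.15 (95% interval -0.13 to 0.44) and SDHD at 0.13 (95% interval -0.12 to 0.38). In birds labelled male the ATP5F1AW probe set cannot be read as the W copy.

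Diet F against diet A had 42 of 59 genes lower in diet F with a median of -0.047, beside 47.3% of the other genes and a median of 0.013. At an unadjusted p under 0.05, 0 of the 59 were lower, beside 3.05% of all probe sets, and 0 were higher, beside 3.78%. After adjustment 0 of the 59 were called, with a smallest limma adjusted p of 0.731, beside 0% of all probe sets. The median moved to -0.007 without A1, -0.026 without F2, -0.029 without F3 and -0.089 without F4, and it was 0.008 with the title number as a covariate and thus had no stable sign. Of the markers, 9 of 9 crypt (median -0.787), 6 of 6 matrix (-0.76) and 6 of 7 T and NK lymphocyte markers (-0.08) were lower in diet F than in diet A. Higher in diet F were 10 of 12 enterocyte (median 0.11) and 5 of 5 enteroendocrine markers (0.25). NDUFAF6 differed by -0.30 (95% interval -0.60 to 0.005), ATP5H by -0.21 (95% interval -0.42 to 0.01) and COX7A2 by -0.25 (95% interval -0.54 to 0.04). Without A1, in which it was 6.21, the NDUFAF6 difference was -0.17. SDHD, ATP5F1AW and COX7A2L were the leading genes higher in diet F, at 0.17 (95% interval -0.08 to 0.42), 0.16 (95% interval -0.12 to 0.45) and 0.10 (95% interval -0.15 to 0.36). Here too the ATP5F1AW values cannot be read as the W copy.

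Diet F against diet E ran the other way, with 20 of 59 genes lower in diet F, 39 higher and a median of 0.051, beside 48.8% of the other genes lower and a median of 0.004. The count at an unadjusted p under 0.05 was 0 lower, beside 1.66% of all probe sets, and 1 higher, beside 1.29%. After adjustment 0 of the 59 were called, with every limma adjusted p at 1, beside 0% of all probe sets. The median was 0.103 without E1, 0.094 without F2, 0.088 without F3, 0.026 without E4 and 0.025 without F4, and it was -0.022 within the lower title range. The number marked was 5 without E1 and 0 without F4, E4 or F1. Of the markers, 4 of 9 crypt and 6 of 6 matrix markers (median -0.48) were lower in diet F, and 6 of 7 T and NK lymphocyte markers were higher (0.14). Also higher in diet F were 5 of 12 enterocyte (median -0.01) and 3 of 5 enteroendocrine markers (0.17). The 1 gene was ATP5B, higher in diet F by 0.28 (95% interval 0.005 to 0.56) with no overlap between birds. F1 at 12.337 lay just above E1 at 12.33. The dimmer probe set of ATP5B lay closer, at 10.56 in diet F and 10.40 in diet E. COX8A was higher in diet F by 0.30 (95% interval -0.01 to 0.61) and NDUFAF7 by 0.18 (95% interval -0.02 to 0.39), and for NDUFAF7 all diet F birds, at 7.47 to 7.53, lay above all diet E birds. Diet F lay wholly above diet E for 2 of the 59 genes, beside 199 of 20804 probe sets. On the lower side were NDUFAF6 at -0.19, NDUFAF8 at -0.18 and UQCR11 at -0.12, each with an interval that included 0.

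Other genes tied to mitochondria were set beside the 59 genes in the same fit, with cytosolic ribosomal protein and proteasome genes as comparison lists. Between diets H and A, 26 of 28 assembly and supply genes outside the rule were lower in diet H with a median of -0.146, and so were 12 of 15 electron carriers and feeders of ubiquinone, with a median of -0.16. Among 58 mitochondrial ribosomal protein genes 52 were lower with a median of -0.219, and among 53 cytosolic ribosomal protein genes 52 were, with a median of -0.49. Citric acid cycle genes were divided, with 7 of 13 lower and a median of -0.086, as were 14 regulators of mitochondrial gene expression (8 lower, median -0.024) and 24 proteasome subunits (13 lower, median -0.019). Of 21 outer membrane and import genes 15 were lower, with a median of -0.098. None of the genes in these lists passed a limma adjusted p of 0.05 in any pair of diets, and whether any list differs from another was not tested.

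The genes named from these lists were among the 2 with the smallest F test p in their list. COQ8A, a kinase-like protein needed to make ubiquinone, averaged 7.50 in diet H, 7.71 in diet F, 7.67 in diet E and 8.13 in diet A, with a difference of -0.64 between diets H and A (limma adjusted p 0.197). TOMM5, a small subunit of the outer membrane import channel, differed by -0.54 (limma adjusted p 0.197), and of the small mitochondrial ribosomal subunit MRPS10 differed by -0.48 (limma adjusted p 0.215) and MRPS2 by -0.65 (limma adjusted p 0.197). In the other direction SUCLA2, a subunit of succinyl-CoA synthetase in the citric acid cycle, was at 8.43 in diet H and 8.01 in diet A (limma adjusted p 0.394). The other leading gene of the citric acid cycle list, DLAT, was lower in diet H, with a difference of -0.29 (limma adjusted p 0.358). PPARD, a nuclear receptor for fatty acids, was at 8.90 in diet H and 8.39 in diet A (limma adjusted p 0.287).

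**Figure D5:**
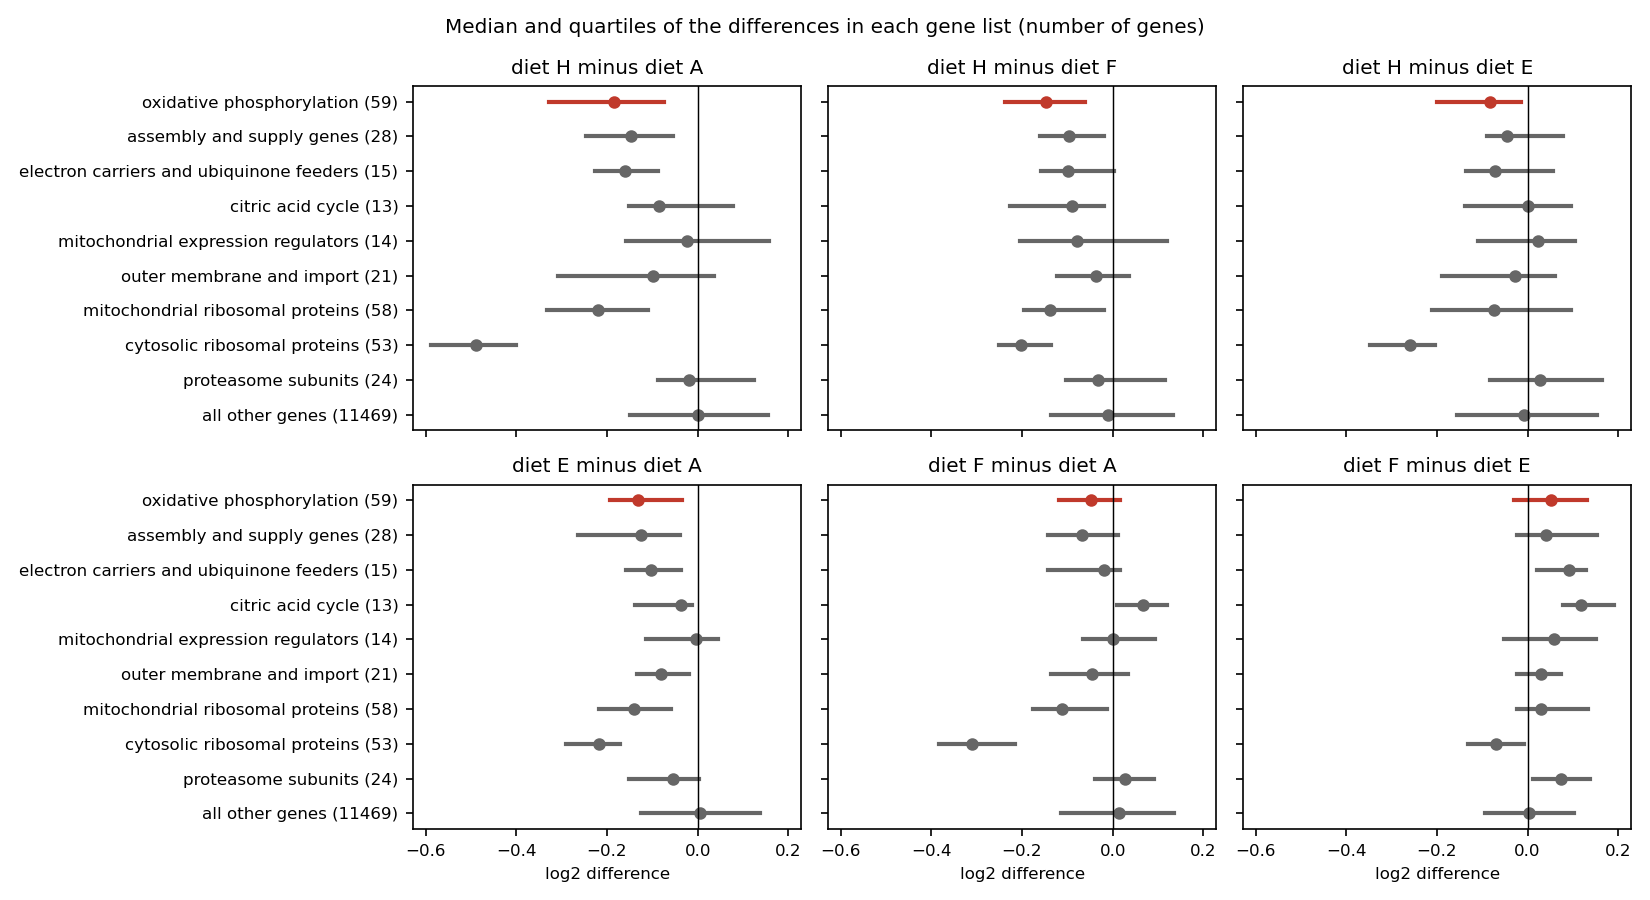
Median (point) and quartiles (line) of the log2 differences of the 59 oxidative phosphorylation genes (red) and of other gene lists (grey), in 6 pairs of diets. Between diets H and A the 59 genes centre on -0.185, the cytosolic ribosomal protein genes on -0.49 and the 11469 other genes on 0.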

How the data were processed

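Total RNA from the jejunum of 16 birds was extracted with Qiazol, cleaned on RNeasy columns, labelled with biotin and measured on 1-colour Affymetrix arrays, per the labels' protocols. The submitters' processing notes name GCOS 1.1.1. The deposited table gives 1 value per probe set and array, read as log2 intensity because its range (0.79 to 14.48) and medians fit that scale. The log base, summarization, normalization and any filter were not given in the sources used here, and fold changes rest on base 2.

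Of 20804 probe sets 12300 had 1 gene symbol in GEO's platform annotation, which can be old, 256 had several and 8248 had none. Entrez numbers placed 58 of the 59 genes in the RefSeq gene table, with 0 changed symbols. Where a gene had several probe sets, the brightest by its mean on the 16 arrays stood for it, and 2 probe sets with several symbols were left out.

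limma 3.58.1 in R 4.3.3 fitted the 4 diets on all 16 arrays without covariates. Moderated F and pairwise tests were adjusted (Benjamini-Hochberg, 0.05) over all probe sets. Replicates are separate birds, per the design text, so p-values measure the spread between birds, and 4 arrays a diet limit the precision. The main fit treats the 4 birds of a diet as independent. Whether birds with neighbouring title numbers shared a pen is not given. Genes named in the text are the 3 with the smallest F test p in each complex, the 3 with the smallest p on each side of each pair, the 3 with the highest and the 3 with the lowest mean level, related forms of one subunit, and the measured subunits of complex II, with any exception stated. The genes, lists and tests were chosen with earlier results of these data known. The fit was first tested on simulated data. Alternatives changed the scaling, the filter on dim probe sets, the variance model, the handling of title numbers, and left out each bird in turn. No sequences were used.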

Additional observations from a re-analysis of the deposited data

Results flagged for a closer look

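In 10 of 148 groups of 4 birds (30 genes and 7 means, in each of 4 diets), 1 bird lay far from the other 3 for the spread of its group by Dixon's test. Chance marks about 1 in 20 such groups.

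Bird H4 was the low one for 3 genes. NDUFC2 was 7.57 in H4 and 8.04 to 8.13 in the other diet H birds. SDHD was 10.56 in H4 and 10.82 to 10.84 in the others, and ATP5B was 11.69 in H4 and 12.24 to 12.29 in the others. The assembly factor NDUFAF8 was low in H3 instead, at 6.03 against 6.76 to 6.89.

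In diet F the mean of complex III was 9.93 in F4 and 9.69 to 9.73 in the others. In diet E, SDHD was low in E2, at 10.61 against 10.97 to 11.04, and NDUFA9 was high in E4, at 9.20 against 8.99 to 9.02. In diet A, bird A1 was high for NDUFB1, at 10.31 against 9.96 to 9.99, and for the mean of complex IV, at 10.45 against 10.26 in each of the others. COX8A was high in A4, at 8.69 against 8.42 to 8.45.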

How the results depend on the processing

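No gene of the 59 was called under any alternative, from scaling to leaving out any 1 bird. The count of all probe sets called over the 4 diets was 1 instead of 0 with median centring, without the dimmest 25% of probe sets and with a trended, robust variance. Between diets H and A it was 111 instead of 1 with the title range as a block, where the smallest limma adjusted p of the 59 genes was 0.0847, and it was 0 within either title range, with arrays of these diets only, and with A1 and H4 left out, an alternative added after seeing the data. Fewer birds enter the last fits; the cause of the 111 was not tested. With each bird left out, the calls among all probe sets ran from 0 to 2 for H minus A, H minus E and F minus A, 0 to 10 for F minus E and 0 to 1 for E minus A.

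Medians by complex that moved by more than the spread between birds lay mostly within a title range, where 2 birds a diet remain. In the lower range the assembly factors were at 0.057 for H minus A and 0.194 for H minus F, complex V at -0.204 for H minus E, and complexes II, III and V at 0.189, -0.131 and -0.117 for F minus E. In the upper range the assembly factors were at -0.223 for H minus A, 0.032 for H minus E and -0.095 for E minus A, complex III at -0.417 for H minus F and 0.242 for F minus E, and complex V at 0.085 for F minus A and 0.289 for F minus E. Without A1 and H4, H minus A was -0.041 in complex IV and -0.08 in complex V. Leaving out 1 bird gave assembly factor medians from -0.238 to -0.103 for E minus A and from -0.111 to 0.121 for F minus E, and complex V medians from -0.027 to 0.152 for F minus E.

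Among the 3 leading genes on each side of each pair, signs turned for 5 genes near 0. For H minus A, NDUFA9 was -0.022 with quantile normalization, -0.063 with the title number and -0.006 in the upper range, and NDUFS4 was -0.017, -0.002 and -0.032 under these 3. ATP5F1AW was -0.007 with the title number, -0.018 in the lower range and -0.025 without A1 and H4. For H minus F, ATP5O was -0.074 in the lower range and NDUFAF5 -0.078 in the upper one. Leaving out 1 bird gave -0.035 to 0.055 for NDUFA9, -0.075 to 0.104 for NDUFS4, -0.014 to 0.169 for ATP5F1AW and -0.078 to 0.133 for ATP5O. No paired analysis was possible because the labels give no shared replicate numbers. Neighbouring title numbers as a random block (correlation 0.173) left H minus A at a smallest limma adjusted p of 0.435. At an unadjusted p under 0.05, this fit marked 14 of the 59 for H minus A and 2 for H minus F. It marked 2 for H minus E, 1 for E minus A, and 0 for F minus A and for F minus E. Depth cannot be judged, since signal over background is not given.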
